A study of Mus musculus with 4 samples.

Results

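The SLC25 genes encode the mitochondrial carrier family, and they were taken here as the protein-coding genes of the count table whose mouse symbol starts with Slc25. There were 47 such genes among 43346 gene identifiers, and 41 of them had enough reads to be tested. RNA was sequenced from whole mouse hearts on the day of birth (P0) in 2 libraries labelled as double knockouts of MRTFA and MRTFB, on a mixed strain background, and in 2 libraries labelled wild type, on an ICR background. MRTFA and MRTFB are coactivators of serum response factor (SRF), and the comparison asks what the newborn heart expresses without them. Genotype and strain background cannot be told apart here, because every double knockout library is of mixed background and every wild type library is ICR. The labels state neither how the knockout alleles were made nor whether each library is 1 animal. The p-values hence cover no more than library-to-library spread, part or all of which may be technical.

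Mitochondrial carriers are small proteins of the inner mitochondrial membrane, built from repeated pairs of membrane-spanning helices, which exchange nucleotides, phosphate, organic acids, amino acids, cofactors and metal ions between the cytosol and the matrix. In heart muscle the ADP/ATP carriers and the phosphate carrier supply ATP synthase with ADP and phosphate and send ATP out to the contractile apparatus. The oxoglutarate and aspartate/glutamate carriers move reducing equivalents in the malate-aspartate shuttle, and the carnitine carrier brings fatty acids in for oxidation. The adult heart lives largely on oxidation in mitochondria, and this machinery is built up around birth.

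Total counts were 27328195 and 16175259 in double knockout libraries 1 and 2, and 29460641 and 25205257 in wild type libraries 1 and 2. Levels are CPM, counts scaled to a common library size with TMM factors, and levels of different genes were compared only per kilobase of annotated exon. Mrtfa had 3.35 and 2.26 CPM in double knockout against 9.06 and 11.1 CPM in wild type, while Mrtfb had 46.0 and 49.6 CPM in double knockout against 46.9 and 56.8 CPM in wild type. Mrtfb thus overlapped between the groups. How the alleles were made is not given and reads were counted only over whole genes, so the Mrtfb level does not check the labels. Log CPM correlated across genes at r = 0.978 in the double knockout pair and 0.992 in the wild type pair. The double knockout libraries lay more than 2-fold apart in 8.6% of the 16009 tested genes, and the wild type libraries in 2.65%. The 10 heart muscle markers summed to 55184 and 52055 CPM in double knockout libraries and 58962 and 57068 CPM in wild type libraries.

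The family was dominated by a few genes. Slc25a4 alone held 54.5% and 53.3% of the summed per-kilobase level in double knockout libraries 1 and 2, and 55.2% and 55.6% in wild type libraries 1 and 2. With Slc25a5, Slc25a3 and Slc25a11 it made up 79.0% and 80.2% of the sum in double knockout libraries, against 82.7% and 82.2% in wild type libraries. The summed level over all 47 genes was 1537 and 1537 CPM per kilobase in the double knockout libraries and 1970.3 and 1829 CPM per kilobase in the wild type libraries. The sum was thus lower in both double knockout libraries, and the groups did not overlap. Between the highest and the lowest tested member, Slc25a4 and the testis-type ADP/ATP carrier Slc25a31, the wild type levels per kilobase differed 3103-fold.

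**Figure D1:**
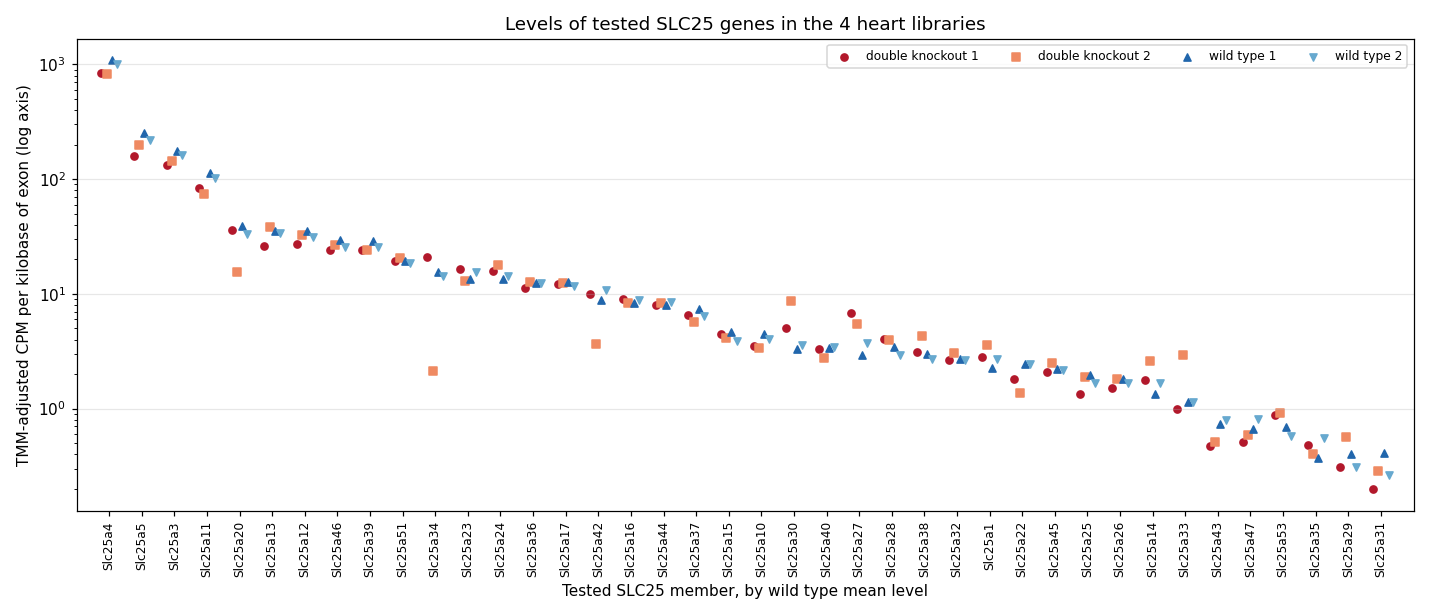
Levels of 40 tested SLC25 genes in the 4 heart libraries, in TMM-adjusted CPM per kilobase of exon on a log axis, ordered by the wild type mean. The 4 genes on the left stand apart from the rest, and Slc25a20, Slc25a34, Slc25a42 and Slc25a33 show double knockout library 2 (orange squares) away from double knockout library 1 (red circles).

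No SLC25 gene passed an adjusted p of 0.05 in edgeR's quasi-likelihood test over all genes, in which 0.0125% of tested genes were called higher and 0.0625% lower (0.075% in all). At an unadjusted edgeR p under 0.05 there were 2 members higher and 6 lower of 41, where 8.7% of all tested genes were higher and 8.63% lower (17.3% in all). DESeq2 called 2 members higher and 0 lower, where 1.73% of the tested genes were higher and 1.56% lower, and limma-voom called 0. The groups did not overlap in 8 members that were higher in double knockout and in 11 that were lower, against 25.8% and 25.2% of all tested genes. The log2 fold change was negative in 24 members, against 48.7% of all tested genes. Its median over the 41 members was -0.07, against 0.01 over all genes tested. Whether these counts depart from the shares of all genes was not tested. The values that follow describe single carriers and set none of them apart from the rest of the transcriptome. Of the 21 members with the higher mean level per kilobase over all libraries 15 had a negative fold change (median -0.15), and of the 20 members with the lower mean level 9 did (median 0.04), a difference that was not tested.

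**Figure D2:**
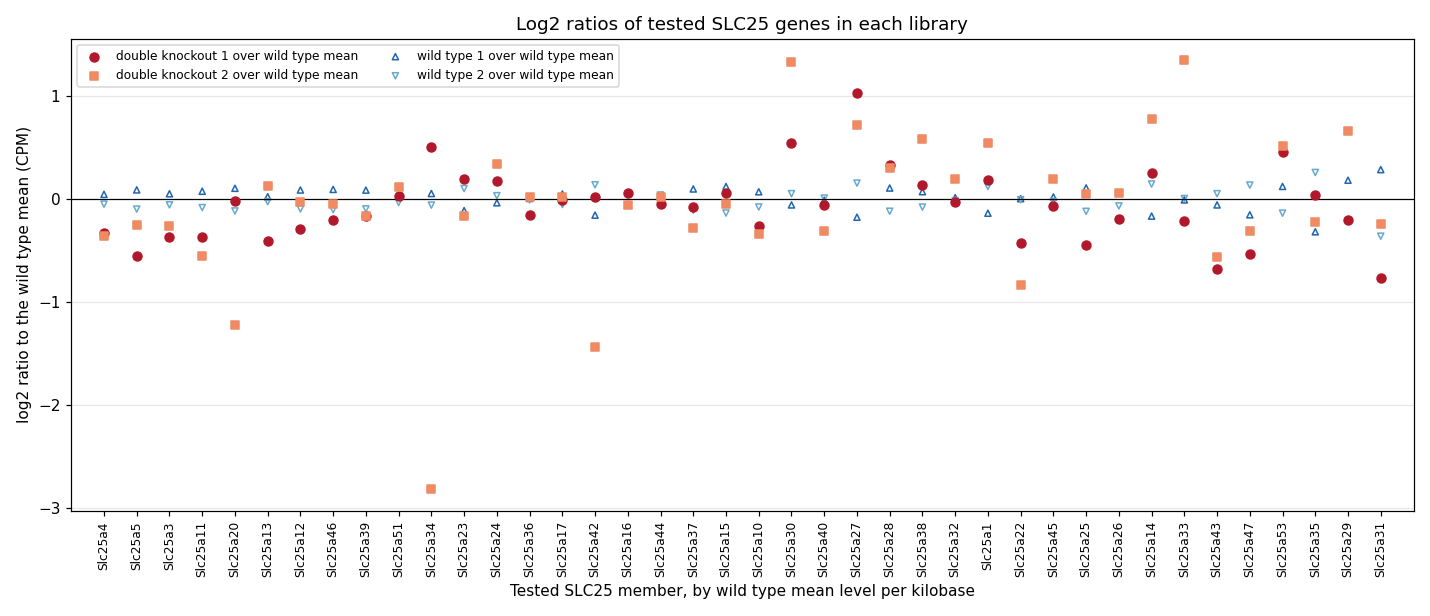
Log2 ratio of each library to the wild type mean for 40 tested SLC25 genes, ordered by wild type level per kilobase. Filled symbols are the double knockout libraries and open symbols the wild type libraries, which scatter around 0. Slc25a27 and Slc25a30 lie above 0 in both double knockout libraries, and Slc25a34 lies at 0.50 in library 1 and -2.82 in library 2.

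The carriers that feed ATP synthase lay lower in both double knockout libraries. Slc25a4 (chromosome 8, 46206797 to 46211284, mm10), the ADP/ATP carrier of heart and skeletal muscle also called ANT1, was at 1971 and 1926 CPM in double knockout and 2559 and 2395 CPM in wild type. Slc25a5 (chromosome X, 36795651 to 36798807), the ADP/ATP carrier ANT2 of most other tissues and of dividing cells, was at 264 and 326 CPM in double knockout and 412 and 362 CPM in wild type. Slc25a3 (chromosome 10, 91116574 to 91124059), the phosphate carrier, was at 734 and 792 CPM against 981 and 911 CPM. In all 3 the groups did not overlap, as in 25.2% of all tested genes in the lower direction. The log2 fold changes were -0.35 (SE 0.12) for Slc25a4, -0.39 (SE 0.15) for Slc25a5 and -0.31 (SE 0.12) for Slc25a3. Their edgeR p was 0.0264, 0.0376 and 0.0404, and the adjusted p was 0.232, 0.262 and 0.269. The processed pseudogenes Gm5560 (98.3% identical to Slc25a5 over 887 bases) and Gm5529 also had reads, so the count of Slc25a5 is uncertain. Gm5560 had 449 and 310 raw counts in double knockout and 572 and 469 in wild type, which are not scaled to library size and do not compare the groups. Since these are whole hearts, fewer cells of a type and less RNA per cell cannot be told apart. The heart muscle marker sum given above was also lower in both double knockout libraries, and its part in these values was not tested. Of its 10 markers, 7 had a negative fold change and 3 a positive one: Myh7 (0.73), Tnnt2 (0.08) and Pln (0.14).

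The balance between the ADP/ATP carriers did not separate the groups. The per-kilobase ratio of Slc25a4 to Slc25a5 was 5.21 and 4.13 in double knockout libraries 1 and 2, and 4.35 and 4.63 in wild type libraries 1 and 2. The wild type values lay between the double knockout values, and the mean log2 ratio was 2.21 in double knockout and 2.16 in wild type. The difference of 0.05 had an exact two-sided permutation p of 1, where 2 libraries against 2 can give no less than 0.333. The per-kilobase ratio of Slc25a3 to Slc25a4 was 0.158 and 0.174 in double knockout and 0.163 and 0.161 in wild type, so phosphate and ADP/ATP carrier transcripts kept nearly the same proportion. Slc25a31 was at 0.423 and 0.612 CPM in double knockout and 0.881 and 0.563 CPM in wild type, which is close to the limit of these libraries.

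The calcium-regulated ATP-Mg/phosphate carriers, which adjust the total adenine nucleotide in the matrix, did not follow. Slc25a24 was at 54.2 and 60.8 CPM in double knockout and 46.7 and 49.0 CPM in wild type, and the groups did not overlap (log2 fold change 0.27, SE 0.11; edgeR adjusted p = 0.308). Slc25a23 was at 87.9 and 68.4 CPM against 70.9 and 82.3 CPM (0.03, SE 0.16), and the groups overlapped fully. Slc25a25 was at 10.5 and 14.8 CPM in double knockout and 15.4 and 13.2 CPM in wild type, also overlapping. The related Slc25a41 and Slc25a54 had too few reads to be tested, with at most 12 and 1 counts in any library. Of the 7 tested nucleotide and phosphate carriers, 0 were higher and 3 lower at an unadjusted p under 0.05. Over all tested genes 8.7% were higher and 8.63% lower, and the median of the 7 carriers was -0.31.

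SRF binds the CArG box, so the 250 bases before each RefSeq transcription start (build GRCm38.p6, the assembly also called mm10) were searched on both strands, in 46 windows that matched 36 of the 47 members. A CArG box lay in the window of 1 member, Slc25a23, which has 2 overlapping windows that hold the same box, and in 1.47% of all 32851 windows. The element of estrogen-related receptors (TNAAGGTCA, N being any base) was in no member window and in 1.14% of all windows. The NRF1 element (GCGC and TGCGC with any base between) was in windows of Slc25a3 and Slc25a31 and in 3.74% of all windows, and the DR1 element of nuclear receptors (AGGTCA repeated after 1 base of any kind) was in no member window and in 0.0335% of all. The MEF2 element was in no member window and in 2.92% of all, and the GC box GGGGCGGGG was in windows of 4 members and in 10.4% of all. A match is a description of the letters and shows no binding, and no match says nothing of these factors elsewhere. Printed here are 3 windows, on the minus strand and written 5′ to 3′ up to the base before the start: Slc25a23 for its CArG box (capitals), and Slc25a30, with the highest fold change of the tested members, and Slc25a34, with the widest split between double knockout libraries, which hold none of the 6 motifs.
Slc25a23, chr17:57059864-57060113: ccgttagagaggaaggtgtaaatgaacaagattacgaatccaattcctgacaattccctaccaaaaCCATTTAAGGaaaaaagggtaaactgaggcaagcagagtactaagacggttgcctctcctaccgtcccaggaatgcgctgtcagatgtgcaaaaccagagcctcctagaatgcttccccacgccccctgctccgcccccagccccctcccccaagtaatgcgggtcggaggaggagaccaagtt
Slc25a30, chr14:75787038-75787287: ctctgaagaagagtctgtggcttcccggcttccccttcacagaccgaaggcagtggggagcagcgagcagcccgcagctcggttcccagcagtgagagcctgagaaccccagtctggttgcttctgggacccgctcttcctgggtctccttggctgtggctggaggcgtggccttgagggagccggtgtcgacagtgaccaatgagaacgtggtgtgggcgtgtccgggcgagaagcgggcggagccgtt
Slc25a34, chr4:141623835-141624084: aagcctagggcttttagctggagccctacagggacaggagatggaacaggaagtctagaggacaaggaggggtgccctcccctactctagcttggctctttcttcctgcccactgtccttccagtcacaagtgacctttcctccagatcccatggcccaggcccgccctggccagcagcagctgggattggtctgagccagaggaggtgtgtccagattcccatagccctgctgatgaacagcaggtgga
The levels of Slc25a23, the one carrier with a CArG box in a searched window, overlapped between the groups, as given above. Whether the box bears on its level was not tested.

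Carriers of the malate-aspartate shuttle differed among themselves. Slc25a11 (chromosome 11, 70644196 to 70647479), the oxoglutarate/malate carrier, was at 178 and 157 CPM in double knockout and 242 and 217 CPM in wild type. Its groups did not overlap, and its log2 fold change was -0.46 (SE 0.12). The edgeR adjusted p was 0.178 and the unadjusted p 0.00966. The annotation places 8.9% of its exon bases opposite Rnf167, and whether counting used the strand is not given. Rnf167 had 1163 and 676 raw counts in double knockout and 653 and 717 in wild type. Raw counts are not scaled to library size and do not compare the groups. Slc25a12 and Slc25a13, the aspartate/glutamate carriers aralar and citrin, had nearly equal wild type levels of 33.3 and 34.9 CPM per kilobase. Slc25a12 was at 200.03 and 240.2 CPM in double knockout and 260 and 229 CPM in wild type, and Slc25a13 at 99.9 and 144 CPM against 135 and 130.2 CPM. Double knockout library 1 was the low one in both genes, and double knockout library 2 lay within or above the wild type values. Their per-kilobase ratio was 1.04 and 0.860 in double knockout and 0.999 and 0.909 in wild type. Among the enzymes of the shuttles, 6 of 7 had a negative fold change (median -0.34), against 48.7% of all tested genes. At an unadjusted p under 0.05, 0 were higher and 2 lower, against 8.7% and 8.63% of all tested genes. These were malate dehydrogenases Mdh2 (-0.34, SE 0.13; adjusted p = 0.261) and Mdh1 (-0.36, SE 0.14; adjusted p = 0.278).

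The other carboxylate carriers were sparse in these hearts. Slc25a1, the citrate carrier, was at 6.10 and 7.83 CPM in double knockout and 4.86 and 5.83 CPM in wild type (log2 fold change 0.38, SE 0.23; edgeR adjusted p = 0.443). With double knockout library 1 left out its fold change was 0.55, and with library 2 left out 0.19. Its gene lies 4.508 Mb from Mrtfb on chromosome 16. Slc25a10, the dicarboxylate carrier, was at 12.2 and 11.6 CPM in double knockout and 15.4 and 13.9 CPM in wild type (-0.30, SE 0.15; adjusted p = 0.376). The groups did not overlap in either gene, but in opposite directions, as in 25.8% (higher) and 25.2% (lower) of all tested genes. The oxodicarboxylate carrier Slc25a21 had 9 counts over the 4 libraries and was not tested. Of the 6 genes for cytosolic citrate use, none reached an unadjusted p of 0.05, with a median of -0.13, and the one with the highest CPM, with no account of gene length, was Acacb, acetyl-CoA carboxylase 2, at 230.1 and 133 CPM against 240.0 and 255 CPM.

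Of the 7 tested amino acid carriers, 1, Slc25a22, had an unadjusted edgeR p under 0.05, against 17.3% of all tested genes. Slc25a22 (chromosome 7, 141429744 to 141437892), a glutamate carrier, was at 10.9 and 8.26 CPM in double knockout and 14.7 and 14.6 CPM in wild type. The groups did not overlap, and the log2 fold change was -0.61 (SE 0.19). The edgeR adjusted p was 0.203 and the unadjusted p 0.0177. Its paralog Slc25a18 had at most 15 counts in a library and was not tested. Slc25a38, the glycine carrier needed for haem synthesis, was at 8.61 and 11.7 CPM in double knockout and 8.25 and 7.43 CPM in wild type (0.37, SE 0.21; adjusted p = 0.428). Leaving out double knockout library 1 gave a fold change of 0.58, and leaving out library 2 gave 0.13. Slc25a44, a carrier of branched-chain amino acids, was at 28.5 and 29.9 CPM against 28.6 and 30.3 CPM. Slc25a15, the ornithine carrier, was at 25.2 and 23.4 CPM against 26.3 and 22.02 CPM. These last 2 overlapped between the groups, with fold changes of -0.01 (SE 0.12) and 0.01 (SE 0.15). Slc25a29, a carrier of basic amino acids, lay near 1 CPM throughout, and Slc25a2, a second ornithine carrier, had at most 8 counts in a library.

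Slc25a27 and Slc25a30 had the highest fold changes of the 41 tested members. Slc25a27 (chromosome 17, 43641891 to 43667214) and Slc25a30 (chromosome 14, 75760117 to 75787037) are related in sequence to the uncoupling proteins, as is Slc25a14, and are known by the names UCP4 and KMCP1. Slc25a27 was at 26.6 and 21.5 CPM in double knockout and 11.6 and 14.5 CPM in wild type. Slc25a30 was at 23.0 and 39.4 CPM in double knockout and 15.1 and 16.3 CPM in wild type. Slc25a14 was at 4.23 and 6.12 CPM in double knockout and 3.17 and 3.94 CPM in wild type. In all 3 genes the groups did not overlap, as in 25.8% of all tested genes in the higher direction. The log2 fold changes were 0.89 (SE 0.19) for Slc25a27, 0.99 (SE 0.27) for Slc25a30 and 0.53 (SE 0.27) for Slc25a14. In edgeR, p was 0.00312, 0.0111 and 0.1, and adjusted p was 0.148, 0.183 and 0.378. DESeq2 called Slc25a27 (adjusted p = 0.0132) and Slc25a30 (adjusted p = 0.0276). Among the alternatives that kept all 4 libraries, only DESeq2 and the fit with no filter gave Slc25a27 and Slc25a30 an adjusted p under 0.05. Both kept a positive fold change in all 14 alternatives. These reuse the same 4 libraries, in which the groups did not overlap, so the sign had little room to change. Without double knockout library 2 the fold change of Slc25a30 was 0.55, and without library 1 it was 1.33. For Slc25a14 these values were 0.25 and 0.78. In rank of level per kilobase, Slc25a27 stood 20th in double knockout and 25th in wild type, and Slc25a30 19th and 23rd.

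The uncoupling proteins themselves are family members under other symbols. Ucp2 was at 212 and 65.5 CPM in double knockout libraries 1 and 2, and 101 and 163 CPM in wild type libraries 1 and 2. Ucp3, the form of skeletal muscle and heart, was at 63.5 and 1.04 CPM in double knockout libraries 1 and 2, and 30.7 and 56.1 CPM in wild type libraries 1 and 2. Double knockout library 2 was thus the lowest of the 4 in both, and library 1 the highest. Ucp1, the uncoupling protein of brown fat, had 0 CPM in both double knockout libraries and at most 0.0402 CPM in wild type. Of these 5 genes outside the symbol rule, 4 were tested, none reached an unadjusted p of 0.05 and the median was -0.09. Mtch1, in the outer membrane, was at 97.1 and 93.6 CPM in double knockout and 93.9 and 106 CPM in wild type. Mtch2, an outer membrane insertase, was at 142 and 157 CPM in double knockout and 165 and 159.5 CPM in wild type.

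**Figure D3:**
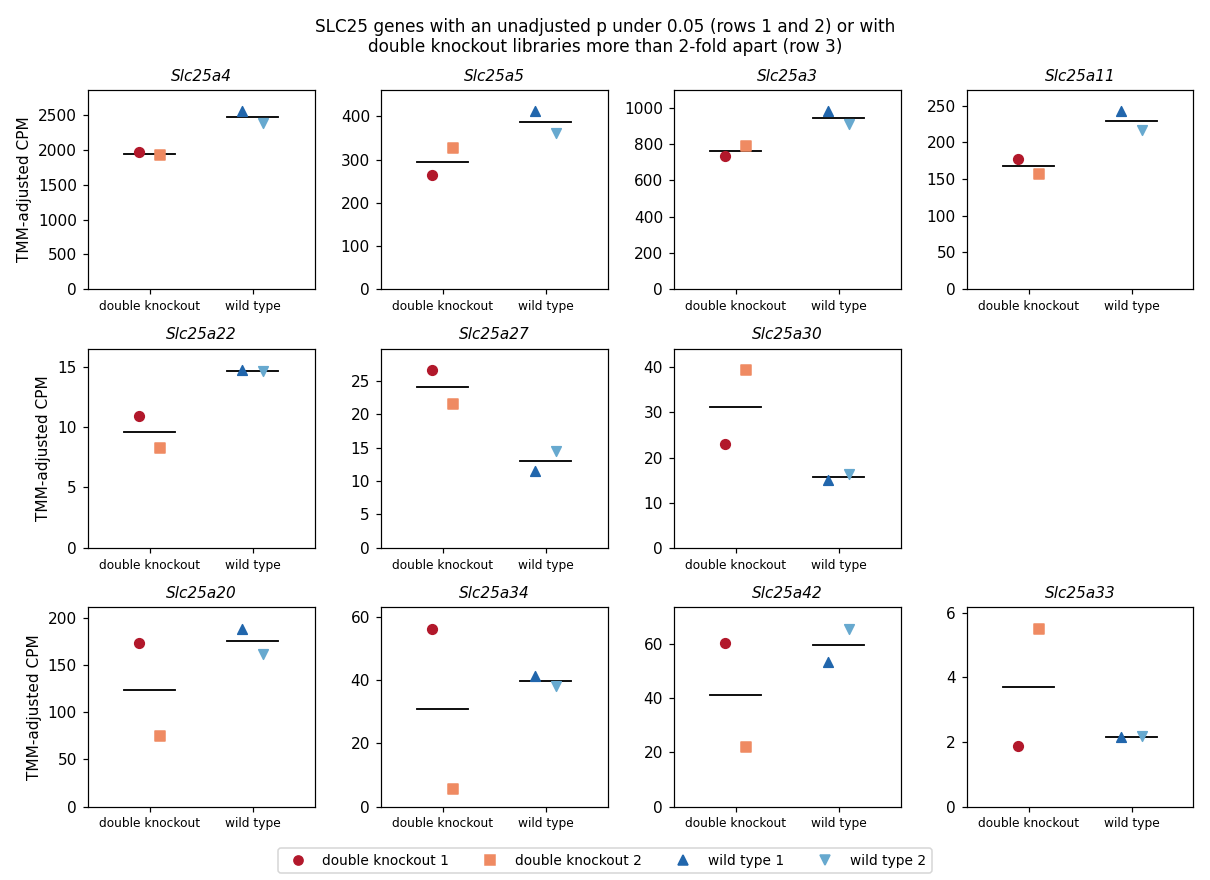
TMM-adjusted CPM of 11 SLC25 genes, with 1 symbol per library, the double knockout libraries on the left of each panel, the wild type libraries on the right, and a line at each group's mean. The upper 7 panels show genes with an unadjusted edgeR p under 0.05, and in the lower 4 (Slc25a20, Slc25a34, Slc25a42 and Slc25a33) double knockout library 2 lies apart from the other libraries.

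The double knockout libraries lay more than 2-fold apart in 4 of 41 members, against the 8.6% of all genes given above, and the wild type libraries in 0 of 41, against 2.65%. These 4 were Slc25a20, Slc25a34, Slc25a42 and Slc25a33. Slc25a20 (chromosome 9, 108662088 to 108684641), the carnitine/acylcarnitine carrier of fatty acid oxidation, was at 173 and 74.9 CPM in double knockout and 189 and 162 CPM in wild type. Slc25a34 (chromosome 4, 141618824 to 141623821), a carrier whose substrate is not settled, was at 56.2 and 5.63 CPM in double knockout and 41.2 and 38.1 CPM in wild type. Slc25a42 (chromosome 8, 70184340 to 70212305), the coenzyme A carrier, was at 60.2 and 21.9 CPM in double knockout and 53.4 and 65.5 CPM in wild type. In all 3 genes double knockout library 1 lay within or above the wild type pair, and library 2 lay far below the other 3 libraries. Slc25a33, a carrier of pyrimidine nucleotides, was at 1.87 and 5.51 CPM in double knockout and 2.15 and 2.17 CPM in wild type, with library 2 the high one.

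One library decided each of these 4 values. The log2 fold change of Slc25a20 was -0.50 (SE 0.40) with all libraries, -1.23 without double knockout library 1 and -0.02 without library 2. For Slc25a34 it was -0.34 (SE 1.03), -2.82 and 0.50 in the same order. For Slc25a42 it was -0.52 (SE 0.48), -1.44 and 0.02, and for Slc25a33 it was 0.73 (SE 0.52), 1.35 and -0.21. Their edgeR adjusted p with all libraries was 0.579, 0.897, 0.623 and 0.518. The 4 genes were picked for the distance between their double knockout libraries, so the values with 1 of these left out restate that choice. The 4 enzymes of the carnitine shuttle and the plasma membrane carnitine transporter Slc22a5 showed a like library split: their median log2 ratio to the wild type mean was -0.15 in double knockout library 1 and -1.29 in library 2. Crat, carnitine acetyltransferase, was at 324 and 156 CPM in double knockout and 415 and 392 CPM in wild type, and Cpt2, the inner membrane carnitine palmitoyltransferase, at 135 and 54.1 CPM against 149 and 155 CPM. All 5 genes had a negative fold change (median -0.45), against 48.7% of all tested genes, and none reached an unadjusted p of 0.05. The 7 brown fat markers summed to 57.4 and 44.5 CPM in double knockout and 71.5 and 76.2 CPM in wild type, and 3 of the 7 were tested. Cidea was at 21.7 and 7.59 CPM in double knockout and 19.6 and 20.4 CPM in wild type, with library 2 again the low one. Prdm16 was at 24.5 and 22.2 CPM against 35.9 and 35.9 CPM, and Dio2 at 11.1 and 14.6 CPM against 15.9 and 19.8 CPM. Ucp1, Adipoq and Plin1 were at or below 0.106 CPM in every library, and the part of these markers in the split was not tested.

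The next 5 carriers, of cofactors and pyrimidine nucleotides, lay near their wild type levels. Slc25a51, the NAD+ carrier, was at 107 and 113 CPM against 107 and 103 CPM. Slc25a36, a carrier of pyrimidine nucleotides like Slc25a33, was at 107 and 122 CPM against 120.1 and 119 CPM. It shares 544 bases at 99.6% identity with the pseudogene Gm13217, so part of its count is uncertain. Slc25a16, linked to coenzyme A supply, was at 43.1 and 39.9 CPM against 40.1 and 42.8 CPM. Slc25a32, a carrier of folate and FAD, was at 16.05 and 18.7 CPM against 16.5 and 16.2 CPM, and Slc25a26, the S-adenosylmethionine carrier, at 7.30 and 8.75 CPM against 8.74 and 7.997 CPM. These 5 overlapped between the groups, with fold changes from -0.07 to 0.08. The 5 mitochondrial folate enzymes had a median of -0.09, none with an unadjusted p under 0.05.

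Slc25a17, a carrier of peroxisomes for coenzyme A, FAD and NAD, is the member closest to a targeted gene, 0.128 Mb from Mrtfa on chromosome 15 (81318911 to 81360812). It was at 34.7 and 35.4 CPM in double knockout and 36.1 and 33.6 CPM in wild type. The wild type values lay on either side of the double knockout values, and the log2 fold change was 0.01 (SE 0.12).

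Of the 4 iron and glutathione carriers, none reached an unadjusted p of 0.05. The groups did not overlap in 3, with Slc25a28 higher and Slc25a39 and Slc25a40 lower in double knockout. Over all tested genes, the groups did not overlap in 25.8% (higher) and 25.2% (lower). Slc25a37 (mitoferrin-1), which brings iron into mitochondria and is abundant in red cell precursors, was at 39.4 and 34.1 CPM in double knockout and 44.5 and 38.6 CPM in wild type. Its relative Slc25a28 (mitoferrin-2) was at 15.2 and 14.8 CPM in double knockout and 12.97 and 11.1 CPM in wild type. Their per-kilobase ratio was 1.62 and 1.44 in double knockout and 2.14 and 2.17 in wild type. The ratio was lower in both double knockout libraries, a pattern chosen after the values were seen, while neither gene passed a test alone (edgeR adjusted p = 0.556 and 0.367). It was not the only such ratio: that of Slc25a25 to Slc25a24 was 0.085 and 0.106 in double knockout and 0.144 and 0.117 in wild type. The ratios of Slc25a4 to Slc25a5 and of Slc25a12 to Slc25a13 overlapped. Erythroid markers summed to 464 and 807 CPM in double knockout and 753 and 554 CPM in wild type, and their part in the ratio of Slc25a37 to Slc25a28 was not tested. Slc25a39, the glutathione carrier, was at 66.6 and 66.8 CPM against 79.4 and 70.0 CPM (log2 fold change -0.16, SE 0.11), and its paralog Slc25a40 at 27.6 and 23.1 CPM against 28.5 and 28.9 CPM (-0.17, SE 0.14). Of 15 genes of iron-sulfur and haem synthesis, 0 were higher and 4 lower at an unadjusted p under 0.05. Over all tested genes these shares were 8.7% and 8.63%, and the median of the 15 was -0.26. The smallest p belonged to Alas1, the first enzyme of haem synthesis outside red cells, at 110 and 125 CPM in double knockout and 204 and 185 CPM in wild type (-0.72, SE 0.12; edgeR adjusted p = 0.121, DESeq2 adjusted p = 0.00143).

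The remaining members were outer membrane or orphan carriers. Slc25a46, which sits in the outer membrane and takes part in mitochondrial fission and lipid handling, was at 131 and 146 CPM in double knockout and 161 and 140.0 CPM in wild type, and the groups overlapped. Slc25a53 was at 6.98 and 7.28 CPM against 5.53 and 4.62 CPM (log2 fold change 0.49, SE 0.20; edgeR adjusted p = 0.293), with the double knockout libraries above both wild type libraries. Slc25a43 was at 0.846 and 0.918 CPM against 1.30 and 1.41 CPM (-0.62, SE 0.31; adjusted p = 0.370). Slc25a47, a liver carrier, was at 1.52 and 1.77 CPM against 1.97 and 2.41 CPM, and Slc25a35, of which 31.3% of exon bases lie opposite Rangrf, was at 1.76 and 1.47 CPM against 1.37 and 2.05 CPM. Slc25a45 was at 5.78 and 6.91 CPM against 6.13 and 5.95 CPM. Slc25a48 had 2 counts over the 4 libraries and was not tested.

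Genes that import or work beside the carriers were set against the family. Over all tested genes, 48.7% had a negative fold change, and 8.7% were higher and 8.63% lower at an unadjusted p under 0.05. All 9 genes of the TIM22 route, which inserts carriers into the inner membrane, had a negative fold change (median -0.45), and 0 were higher and 3 lower at an unadjusted p under 0.05. They were Timm9 at 24.6 and 22.9 CPM in double knockout and 36.3 and 30.7 CPM in wild type, Timm13 and Timm8b. The 17 ATP synthase genes include Atpif1, which encodes an inhibitor of the enzyme and no subunit. Of the 17, 15 had a negative fold change (median -0.33). At an unadjusted p under 0.05, 1 (Atpif1) was higher and 10 lower. Atp5d, of the central stalk, was at 116 and 120.2 CPM in double knockout and 176 and 177 CPM in wild type (-0.58, SE 0.10; edgeR adjusted p = 0.131, DESeq2 adjusted p = 0.00645). Of the pyruvate carrier, which is no SLC25 protein, Mpc2 was at 63.5 and 64.4 CPM in double knockout and 116 and 98.3 CPM in wild type (-0.74, SE 0.12; edgeR adjusted p = 0.121, DESeq2 adjusted p = 0.00203). Its partner Mpc1 was at 16.5 and 19.9 CPM in double knockout and 23.0 and 17.3 CPM in wild type. The groups overlapped in Mpc1 (-0.15, SE 0.19, edgeR adjusted p = 0.721). Of 5 sideroflexins, a separate family of mitochondrial amino acid carriers, 4 had a positive fold change (median 0.30), and Sfxn1, the serine carrier, was higher at an unadjusted p under 0.05 (0.34, SE 0.13; adjusted p = 0.278). Among 9 genes of calcium uptake and release, 4 had a negative fold change, and 0 were higher and 2 lower at an unadjusted p under 0.05. These were Mcur1 (-0.53, SE 0.10; edgeR adjusted p = 0.142, DESeq2 adjusted p = 0.0369) and Letm1 (-0.55, SE 0.15; adjusted p = 0.181), and the median was 0.01. The 3 outer membrane channels had a median of -0.18, and the one with the highest CPM, Vdac1, was at 878 and 855 CPM in double knockout and 1003 and 957 CPM in wild type. None of these genes passed the edgeR threshold over all genes.

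**Figure D4:**
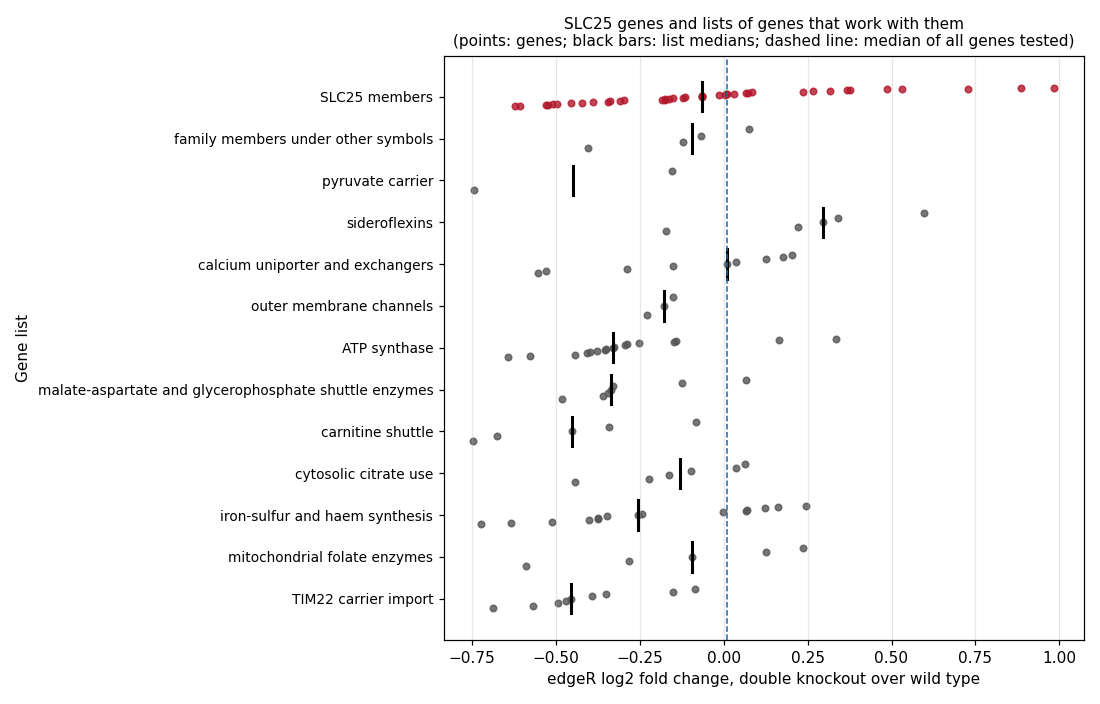
Log2 fold change, double knockout over wild type, of the 41 tested SLC25 genes (top) and of the tested genes in 12 related lists, with 1 point per gene, a black bar at each median and a dashed line at the median of all genes tested (0.01). The SLC25 genes spread from -0.62 to 0.99 around a median of -0.07. The pyruvate carrier, TIM22, ATP synthase, shuttle enzyme and carnitine shuttle medians lie between -0.45 and -0.33. The pyruvate carrier list holds 2 genes, Mpc2 (-0.74) and Mpc1 (-0.15). The carnitine shuttle had a median log2 ratio to the wild type mean of -0.15 in double knockout library 1 and -1.29 in library 2.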

How the data were processed

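Reads per gene were counted by the authors, who deposited raw counts, 1 file per library, per the submitters' processing notes with HTSeq and build mm10; DESeq 1.10.1 is named there too. Of the aligner, annotation release and strand option nothing is stated in the labels used here. Symbols, positions and exon lengths came from GENCODE M21 on the same build, which matched 42462 of 43346 identifiers, and all 47 member genes had one.

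All 4 libraries entered one edgeR 4.0.16 quasi-likelihood fit in R 4.3.3 (filterByExpr defaults, TMM factors, robust estimation, no covariate), with Benjamini-Hochberg adjustment over 16009 genes. SE is the log2 fold change divided by the square root of its F statistic. A count of 3 in 1 library corresponds to 0.106 to 0.184 CPM. DESeq2 1.42.0, limma-voom (limma 3.58.1), other scalings and filters, replicate blocks and leaving out each library were alternatives. The edgeR and DESeq2 steps were tested on simulated data. Near-identical genes were sought with blastn 2.17.0 (at least 97% identity over 100 bases), and 17 of 47 members had such a match. Between libraries of a group the counts differed by more than sampling noise (chi-square per gene 38.3 in double knockout, 16.3 in wild type).

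Members, gene lists and tests were chosen with earlier results of these data known. Each member could be named, but 1 tested member is not reported here and enters only the counts and medians. Of a related list, up to 3 genes with the smallest unadjusted p under 0.05 were named, or the one with the highest mean CPM where there were none. Ucp1, Ucp2, Ucp3, Mtch1, Mpc1, Cpt2, Slc22a5, Adipoq, Plin1, Atpif1, Myh7, Tnnt2, Pln and the pseudogenes were named after their values were seen.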

Additional observations from a re-analysis of the deposited data

How the results depend on the processing

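The SLC25 genes past the edgeR threshold were 0 higher and 0 lower. They were also 0 and 0 with RLE or no composition factors, with mitochondrial and erythroid genes removed, with the stricter filter, with limma-voom and without robust estimation. With no filter 2 passed higher (Slc25a27 and Slc25a30) and 4 lower (among them Slc25a5, Slc25a11 and Slc25a22), where 1514 of 24928 genes passed; DESeq2 called 2 higher. With 1 library left out, the counts changed with the library that was left out. They are not given, because the lone library of a group is then assumed to vary like the others. The cause was not tested. The median log2 fold change of the members, -0.07, was 0.0047 with no composition factors (median of all genes 0.08), -0.083 with no filter and -0.089 with limma-voom, and ran from -0.141 to -0.044 with 1 library left out. Without composition factors 20 of 41 members were negative, against 24. At an unadjusted p under 0.05, members numbered 2 higher and 6 lower with all libraries, where 8.7% of all tested genes were higher and 8.63% lower. Without composition factors members numbered 5 higher and 4 lower, and the share of all genes in that setting is not given. These counts also moved with 1 library left out, where a lone library shows no spread. The Slc25a4 to Slc25a5 difference, 0.05, was -0.12 without double knockout library 1, and ran from -0.12 to 0.22. The fold change of Slc25a34 was -2.82 without double knockout library 1 and turned to 0.50 without library 2. With 1 library left out, the list medians ran from -0.61 to -0.28 for the pyruvate carrier, 0.19 to 0.34 for sideroflexins, -0.23 to -0.11 for outer membrane channels, -0.39 to -0.28 for ATP synthase, -0.44 to -0.21 for shuttle enzymes, -0.173 to -0.051 for citrate use, -0.35 to -0.11 for iron-sulfur and haem synthesis, -0.174 to -0.030 for folate enzymes and -0.55 to -0.33 for TIM22. They crossed 0 for the calcium list (-0.193 to 0.025) and the family members under other symbols (-0.55 to 0.25), and for the carnitine shuttle they ran from -1.29, with double knockout library 1 left out, to -0.15, with library 2 left out. With DESeq2 the median was -0.337 for ATP synthase and -0.138 for citrate use.

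With a replicate block 0 members passed in either direction, the median was -0.07 and the Slc25a4 to Slc25a5 difference 0.05; the block left 2 genes called in all, 3 members lower at an unadjusted p under 0.05 in place of 6, and a fold change of -1.03 for Slc25a34. Deviations of same-numbered libraries correlated at -0.105, so the numbers were not taken to pair the libraries, and a crossed replicate block, chosen after seeing the data, also gave 0 members past the threshold and 3 genes in all. The depth of 16175259 counts in double knockout library 2 limits the members under about 1 CPM, and 6 members could not be tested.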
